A study of Homo sapiens with 2 samples.

Results

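The 10 genes described here encode proteins that work with the transcription factor MYC or set its amount: the cofactors TRRAP, EP400, KAT5, KAT2A, RUVBL1, RUVBL2 and WDR5, the ubiquitin ligases FBXW7 and HUWE1, and the DNA-bound partner ZBTB17 (MIZ-1). They were chosen by symbol from 19096 gene symbols, of which 10272 had a mean RPKM (reads per transcript length and library depth) of at least 1 over both libraries and are called expressed below. All 10 were expressed and none was lost to that limit. A symbol with several transcripts listed was represented by the transcript with the highest mean RPKM. Poly(A)-selected RNA came from P493-6, a human B-cell line whose c-Myc transgene is kept off by tetracycline. The high c-Myc group was 1 library of cells taken 24 h after c-Myc expression was released, and the low c-Myc group was 1 library of cells taken 0 h after release. Both groups therefore carry the repressible transgene and differ by the time since its release, and both were grown in RPMI medium with FBS. With 1 library in each group there was no replicate check and no test between the conditions, and the intervals below cover counting error only. Any technical difference between the libraries therefore cannot be told apart from the time since release. Synthetic RNAs had been added according to the number of cells, which gives both an RPKM ratio and a per-cell ratio for every gene.

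MYC activates genes by bringing coactivator complexes to promoters. TRRAP is a large scaffold protein shared by the SAGA complex, whose acetyltransferase is KAT2A (GCN5), and by the TIP60 complex, which holds the acetyltransferase KAT5 (TIP60), the ATPase EP400 and the paired ATPases RUVBL1 (Pontin) and RUVBL2 (Reptin). WDR5, a core subunit of the MLL and SET1 histone methyltransferases, also contacts MYC on chromatin. FBXW7 is the substrate receptor of an SCF ligase that marks phosphorylated MYC for the proteasome, HUWE1 is a HECT ligase that ubiquitinates MYC, and ZBTB17 is a zinc finger protein through which MYC represses genes. MYC with its partner MAX prefers the E-box CACGTG.

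The promoters of 4 members are shown because WDR5, RUVBL2 and RUVBL1 had the highest ratios of the 10, and WDR5 and KAT5 were the members with an E-box. The windows are RefSeq's, on GRCh38.p14, and run from 250 bases before a listed start to 50 bases after it, on the gene's strand. They were found by gene symbol and were not matched to the transcripts measured here. CACGTG is in capitals, and being its own reverse complement it was searched once for both strands. For WDR5 the window is the only one of its 4 with the motif, at chr9:134136171-134136470 on the + strand. For RUVBL2 it is the first of 2, at chr19:48993637-48993936 on the + strand, and for RUVBL1 the first of 2, at chr3:128153865-128154164 on the - strand. The KAT5 window lies at chr11:65712002-65712301 on the + strand.
WDR5: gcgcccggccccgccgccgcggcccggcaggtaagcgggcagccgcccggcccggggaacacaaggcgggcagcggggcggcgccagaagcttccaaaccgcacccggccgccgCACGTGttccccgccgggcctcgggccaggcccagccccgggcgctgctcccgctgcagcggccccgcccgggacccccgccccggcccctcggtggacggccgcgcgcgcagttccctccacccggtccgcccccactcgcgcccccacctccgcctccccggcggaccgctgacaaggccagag
RUVBL2: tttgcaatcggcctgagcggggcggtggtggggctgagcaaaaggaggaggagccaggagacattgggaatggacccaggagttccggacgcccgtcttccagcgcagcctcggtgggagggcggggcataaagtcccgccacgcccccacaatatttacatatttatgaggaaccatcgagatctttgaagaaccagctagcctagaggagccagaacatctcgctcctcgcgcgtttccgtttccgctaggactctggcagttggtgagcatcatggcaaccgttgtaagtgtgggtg
RUVBL1: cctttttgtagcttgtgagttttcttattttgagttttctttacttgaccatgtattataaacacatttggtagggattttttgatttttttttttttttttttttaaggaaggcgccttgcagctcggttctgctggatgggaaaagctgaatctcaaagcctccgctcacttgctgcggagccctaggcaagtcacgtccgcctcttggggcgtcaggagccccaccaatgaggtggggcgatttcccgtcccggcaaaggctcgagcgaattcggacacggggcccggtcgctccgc
KAT5: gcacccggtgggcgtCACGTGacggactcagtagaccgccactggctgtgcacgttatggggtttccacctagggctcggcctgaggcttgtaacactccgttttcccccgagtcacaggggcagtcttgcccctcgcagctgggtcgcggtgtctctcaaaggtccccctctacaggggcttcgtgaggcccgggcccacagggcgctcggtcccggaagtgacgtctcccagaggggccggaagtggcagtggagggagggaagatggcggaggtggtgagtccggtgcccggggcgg
The table held 18 windows for 8 members and none for TRRAP and ZBTB17. The motif was present in 2 members, 136 bases before the listed start in WDR5 and 235 bases before it in KAT5. No window of EP400, KAT2A, RUVBL1, RUVBL2, FBXW7 or HUWE1 held these letters. Of all windows held, 7.26% of 35116 had the motif, and 13.4% of the 7717 expressed genes found by symbol had at least 1 window with it. The genes with the motif thus included WDR5, past 2-fold, and KAT5, near the median of expressed genes.

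MYC itself was higher in the library labelled high c-Myc. The MYC transcript NM_002467 had an RPKM of 2358 with high c-Myc and 836 with low c-Myc, and the share of the 92 synthetic RNAs in the RPKM sum was 2.75% with high c-Myc and 17.5% with low c-Myc. These reads do not separate the transgene from the cell's own MYC gene. Its partner MAX (NM_145112) had 47.4 with high c-Myc and 46.6 with low c-Myc. The steps between low values implied about 105400000 reads with high c-Myc and 103000000 with low c-Myc, and the members' transcripts rested on about 841 to 39634 reads. B cell markers were abundant, with a summed RPKM over 8 genes of 1276 with high c-Myc and 3278 with low c-Myc, CR2 being at or near 0 in both. Of the other cell types' markers, the 6 of myeloid cells summed to 35.6 with high c-Myc and 151 with low c-Myc, and the 6 of T cells to 2.05 with high c-Myc and 12.6 with low c-Myc. The 4 of NK cells summed to 5.18 with high c-Myc and 10.5 with low c-Myc, and the 6 of fibroblasts and epithelium to 13.1 with high c-Myc and 19.3 with low c-Myc. Erythroid and platelet markers summed to 0.165 with high c-Myc and 0 with low c-Myc, and CD3D, TRAT1 and MPO were listed at 0 in both. These sums are on the RPKM scale. Per cell, by the synthetic RNAs, no expressed marker was lower by 2-fold or more with high c-Myc. The median per-cell log2 ratio was 1.57 over 7 expressed B cell markers, 0.51 over 3 of T cells and 0.20 over 3 of myeloid cells. The part of other cells in the results below was not tested. In bulk RNA the number of cells of a type and their RNA per cell cannot be told apart.

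On the deposited RPKM scale 5 of the 10 members were higher by 2-fold or more with high c-Myc, and the other 5 lay within 2-fold. These 5 were all cofactors: RUVBL2, WDR5, RUVBL1, KAT2A and EP400. Of the 10272 expressed genes, 24.9% passed 2-fold in that direction. No member was lower by 2-fold or more, against 9.74% of expressed genes. After quantile normalization 4 members were higher and none was lower, beside 17.5% and 17.0% of expressed genes. The median log2 ratio of RPKM + 0.5, high over low, was 1.01 over the 10 members and 0.22 over all expressed genes. The 10 genes were picked for their tie to MYC with results of these libraries known, so the comparison describes them and is no test.

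**Figure D1:**
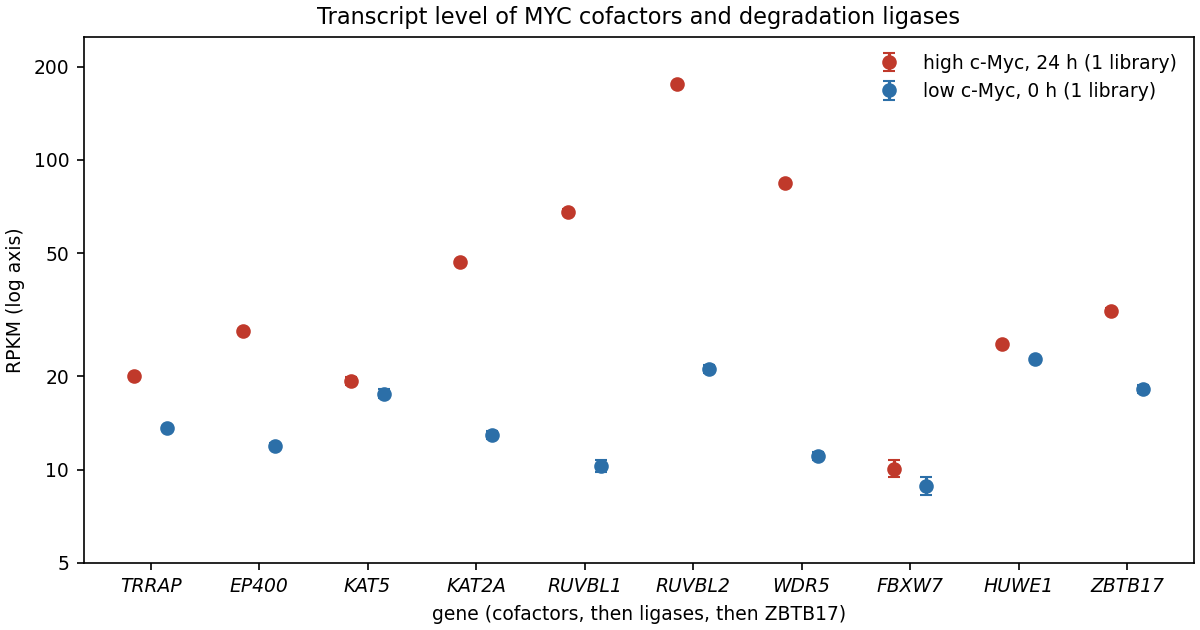
RPKM on a log axis of each member in the library with high c-Myc (red, left) and that with low c-Myc (blue, right), 1 library each, with 95% counting intervals. RUVBL1, RUVBL2 and WDR5 stand far apart between the libraries, while KAT5 and HUWE1 differ little.

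RUVBL2 had the highest ratio of the members. Its transcript (NM_006666) stood at an RPKM of 176 with high c-Myc and 21.1 with low c-Myc, an 8.33-fold higher level (95% counting interval 8.07 to 8.60). RUVBL1, the partner with which it forms mixed rings in the TIP60, INO80 and R2TP complexes, stood at 68.0 with high c-Myc and 10.3 with low c-Myc (NM_003707), 6.64-fold higher (6.32 to 6.97). Among the 10272 expressed genes the log2 ratios of RUVBL2 (3.03) and RUVBL1 (2.67) ranked 206 and 359 from the top. Both ATPases were thus high in the same library, but not in equal measure: the RPKM of RUVBL2 was 2.59 times that of RUVBL1 with high c-Myc and 2.06 times with low c-Myc. Exons of RUVBL1 overlap those of EEFSEC by 370 bases and of SEC61A1 by 344 bases on the opposite strand in GENCODE 29, and the counting is not stated to use strand. EEFSEC stood at an RPKM of 27.1 with high c-Myc and 9.47 with low c-Myc, and SEC61A1 at 64.1 with high c-Myc and 30.7 with low c-Myc, and the part of their reads in the RUVBL1 value was not tested.

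WDR5 lay between these ATPases. It stood at an RPKM of 84.4 with high c-Myc and 11.1 with low c-Myc (NM_052821), 7.63-fold higher (7.36 to 7.90), with a log2 ratio of 2.88 at rank 263. Its second transcript (NM_017588) stood at 82.1 with high c-Myc and 10.8 with low c-Myc, with a log2 ratio of 2.87. The intronless paralog WDR5B, chosen after its values were seen, had 0.687 with high c-Myc and 1.23 with low c-Myc. The mean RPKM of WDR5B, 0.958, was below the limit of 1 for an expressed gene, so ratios to it rest on low values. WDR5 exceeded WDR5B 123 times in RPKM with high c-Myc and 9.02 times with low c-Myc.

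KAT2A and EP400 were the other members past 2-fold. KAT2A, the SAGA acetyltransferase (NM_021078), stood at an RPKM of 46.7 with high c-Myc and 12.9 with low c-Myc, 3.62-fold higher (3.49 to 3.74), with a log2 ratio of 1.81 at rank 1011. Its paralog KAT2B (PCAF), which can take its place in the complex, had 0.874 with high c-Myc and 5.07 with low c-Myc, a log2 ratio of -2.02. The paralogs were thus past 2-fold in opposite directions on the RPKM scale, while per cell KAT2B was 1.45-fold higher with high c-Myc. KAT2A exceeded KAT2B 53.5 times in RPKM with high c-Myc, where the KAT2B value is low, and 2.55 times with low c-Myc. EP400, the large ATPase of the TIP60 complex (NM_015409), stood at 28.1 with high c-Myc and 11.96 with low c-Myc, 2.35-fold higher (2.31 to 2.39), with a log2 ratio of 1.20. Its call ended when the ratios were centred on the median of expressed genes (0.98), brought to equal RPKM sums with the synthetic RNAs left out (0.89) or quantile normalized (0.73). RefSeq lists a copy, EP400P1, and the treatment of reads with several matches is unstated in the sources used here, so the EP400 value is uncertain.

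The scaffold TRRAP and the acetyltransferase KAT5 differed less. TRRAP (NM_003496) stood at an RPKM of 20.1 with high c-Myc and 13.6 with low c-Myc, 1.48-fold higher (1.45 to 1.51). Its log2 ratio of 0.55 was 0.33 after centring, 0.24 at equal sums and 0.07 after quantile normalization. With GC content corrected it was 0.49. Its second transcript (NM_001244580) had 19.99 with high c-Myc and 13.5 with low c-Myc, and exons of TRRAP share 735 bases with SMURF1 on the opposite strand, which had 4.44 with high c-Myc and 4.50 with low c-Myc. KAT5 (NM_182709) stood at 19.3 with high c-Myc and 17.6 with low c-Myc, a log2 ratio of 0.13. It was the lowest of the 10 representing transcripts on this scale, but the 3 longer FBXW7 transcripts had lower ratios, and HUWE1 had a lower one after quantile normalization. Its 4 transcripts ran from 18.03 to 19.3 with high c-Myc and from 16.4 to 17.6 with low c-Myc, with log2 ratios of 0.13 each. KAT5 overlaps RNASEH2C on the opposite strand by 1439 exonic bases, more than any other member overlaps a gene, and RNASEH2C had 27.7 with high c-Myc and 5.34 with low c-Myc. The part of such reads in the KAT5 value was not tested. The sign of KAT5 turned with the scaling, to -0.09 after centring, -0.18 at equal sums, -0.36 after quantile normalization and -0.09 after a correction for GC content.

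ZBTB17, the partner through which MYC represses genes, was higher but within 2-fold. It stood at an RPKM of 32.5 with high c-Myc and 18.2 with low c-Myc (NM_001242884), 1.79-fold higher (1.72 to 1.85), with 31.1 with high c-Myc and 17.4 with low c-Myc for its second transcript (NM_003443). Its log2 ratio of 0.82 was 0.27 after the correction for GC content and 0.28 after quantile normalization. MYC exceeded ZBTB17 by 72.6 times in RPKM with high c-Myc and 46.0 times with low c-Myc.

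**Figure D2:**
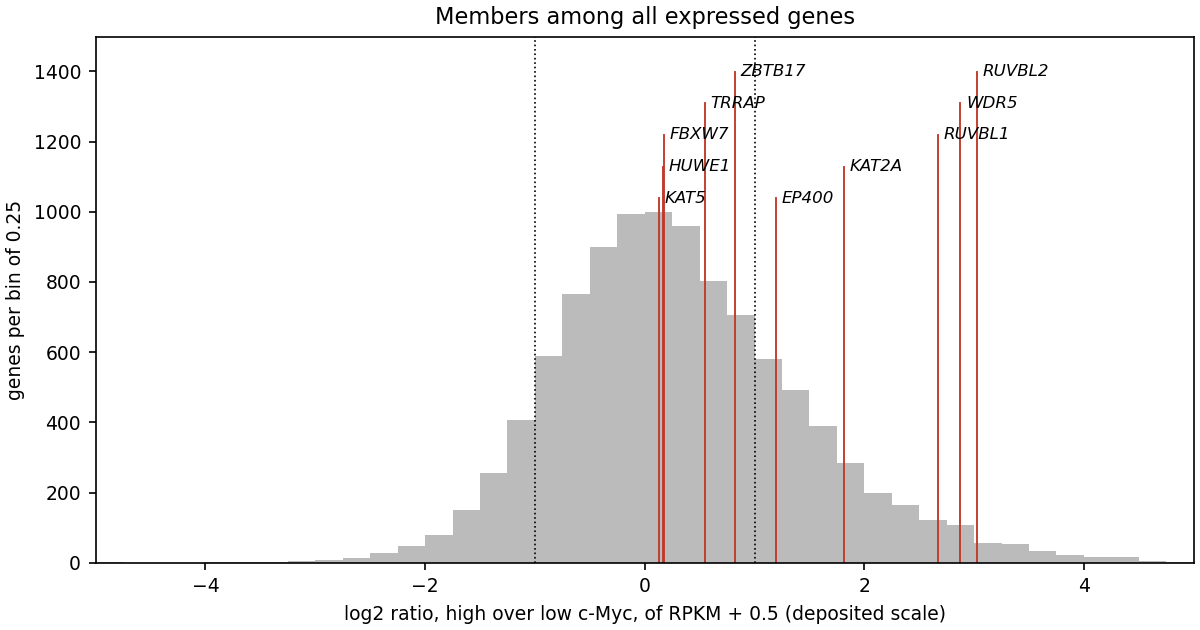
Histogram of the log2 ratio of RPKM + 0.5, high over low c-Myc, of all expressed genes (grey, bins of 0.25), with the 10 members as red lines and 2-fold as dotted lines. RUVBL2, WDR5 and RUVBL1 lie in the upper tail, KAT5, HUWE1 and FBXW7 beside the median of 0.22.

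The ligase HUWE1 had nearly equal RPKM in both libraries. It stood at 25.5 with high c-Myc and 22.7 with low c-Myc (NM_031407), a log2 ratio of 0.16, 1.12-fold higher with a counting interval of 1.11 to 1.14. In the low c-Myc library it was the most abundant of the 10 members, and with high c-Myc 6 members stood above it. MYC exceeded HUWE1 by 92.4 times with high c-Myc and 36.8 times with low c-Myc. The sign of HUWE1 was negative after centring (-0.06), at equal sums (-0.15) and after quantile normalization (-0.39). Its log2 ratio was 0.21 after the correction for GC content.

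FBXW7 was the only member whose transcripts lay on opposite sides of 0. The transcript with the highest mean, NM_001257069, stood at an RPKM of 10.1 with high c-Myc and 8.87 with low c-Myc, 1.14-fold higher, with a log2 ratio of 0.18. That sign turned after centring (-0.05), at equal sums (-0.13) and after quantile normalization (-0.16). After the correction for GC content the log2 ratio of this transcript was 0.43. The other 3 transcripts were lower with high c-Myc. NM_033632 stood at 6.05 with high c-Myc and 8.89 with low c-Myc, with a log2 ratio of -0.52. NM_018315 stood at 4.12 with high c-Myc and 7.03 with low c-Myc (-0.70), and NM_001013415 at 4.30 with high c-Myc and 7.37 with low c-Myc (-0.71). The GC content of NM_018315 was 40.4% and that of NM_001013415 39.6%. No GC-corrected ratio was computed for the 3 longer transcripts. In GENCODE 29 NM_001257069 is a short transcript of 4 exons and 921 bases that shares 728 exonic bases with NM_033632 and no base with the others. The 3 longer transcripts, of 12, 11 and 11 exons, share a body of 3241 bases with 1620 coding bases, and NM_001257069 holds none of that body, where the domains that bind SKP1 and the phosphorylated substrate are encoded. The row that stands for FBXW7 in the counts above therefore does not cover the coding sequence common to the forms of the ligase. Summed over the 4 transcripts, whose shared bases can be counted more than once, the log2 ratio was -0.38. Apart from FBXW7, the 4 members with several transcripts listed had log2 ratios that differed among their transcripts by at most 0.00197. Both TRRAP transcripts rested on about 26709 reads with high c-Myc and 17642 with low c-Myc. Transcripts of a gene can thus count the same reads, so their closeness is no separate check.

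**Figure D3:**
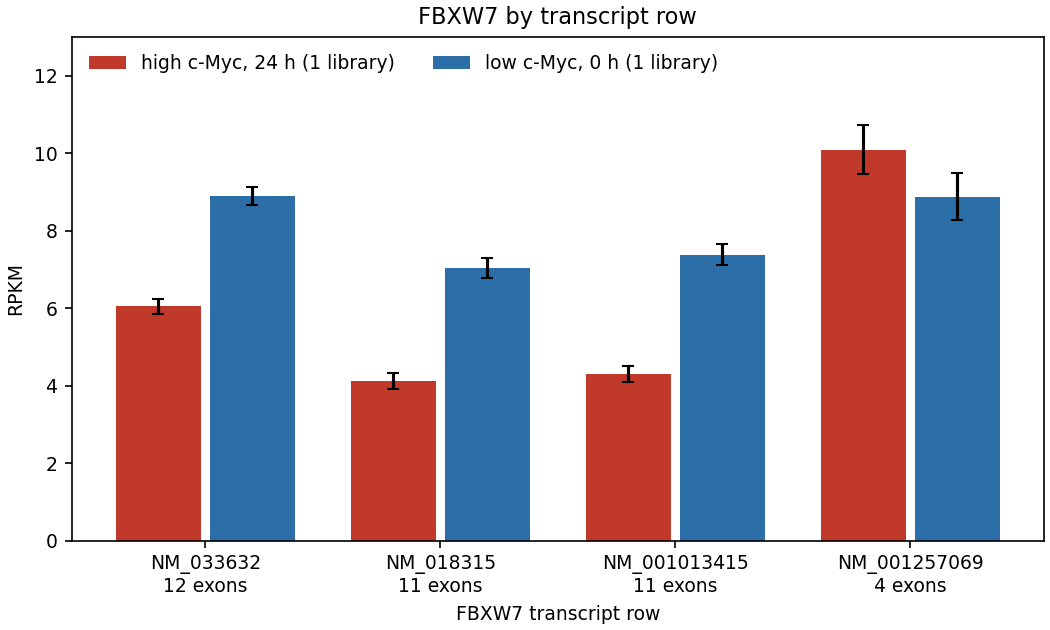
RPKM of the 4 FBXW7 transcripts in the library with high c-Myc (red, left) and that with low c-Myc (blue, right), 1 library each, with 95% counting intervals. The 3 transcripts with the shared coding body are lower with high c-Myc, and the short transcript NM_001257069 is slightly higher.

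The order of the members by RPKM differed between the libraries. In the high c-Myc library it ran RUVBL2, WDR5, RUVBL1, KAT2A, ZBTB17, EP400, HUWE1, TRRAP, KAT5 and FBXW7, and the counting intervals of TRRAP and KAT5 alone overlapped among neighbours. In the low c-Myc library it ran HUWE1, RUVBL2, ZBTB17, KAT5, TRRAP, KAT2A, EP400, WDR5, RUVBL1 and FBXW7, with overlap between ZBTB17 and KAT5 and between WDR5 and RUVBL1. WDR5 and RUVBL1 thus followed RUVBL2 with high c-Myc and stood just above FBXW7 with low c-Myc. RUVBL1, RUVBL2 and WDR5 made up 64.3% of the members' summed RPKM with high c-Myc and 28.6% with low c-Myc. The acetyltransferases changed places: the RPKM of KAT2A was 2.42 times that of KAT5 with high c-Myc and 0.735 times with low c-Myc. EP400 was 1.40 times TRRAP with high c-Myc and 0.879 times with low c-Myc.

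Measured per cell by means of the synthetic RNAs, each of the 10 members was higher by 2-fold or more with high c-Myc. So were 97.1% of the expressed genes, and 0.0876% of them were lower by 2-fold or more. The 46 synthetic RNAs detected well enough to use, at 1 RPKM or more in each library, had a median log2 ratio of -2.56 (SD 0.54 over the synthetic RNAs), which was subtracted from each gene. The median per-cell log2 ratio was 3.57 over the members and 2.78 over all expressed genes. RUVBL2, WDR5 and RUVBL1 were 48.0-fold, 43.2-fold and 37.5-fold higher per cell, KAT2A 20.7-fold, EP400 13.5-fold, ZBTB17 10.4-fold and TRRAP 8.60-fold. FBXW7, HUWE1 and KAT5 were lowest by their representing transcripts, at 6.64-fold, 6.60-fold and 6.45-fold, and MYC was 16.6-fold higher. The 3 longer FBXW7 transcripts, lower on the deposited scale, were 3.59-fold to 4.10-fold higher per cell. In the authors' deposited column that is renormalized to the synthetic RNAs, the ratio was highest for RUVBL2 (41.3). It was 5.13 for KAT5 and 5.25 for FBXW7, whose order turned when the pseudocount was added (log2 ratios of 2.29 and 2.26), and 2.69 to 3.14 for the longer FBXW7 transcripts. WDR5 stood there at 184 with high c-Myc and 5.08 with low c-Myc, and KAT5 at 41.8 with high c-Myc and 8.15 with low c-Myc.

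Ratios in this pair of libraries go with transcript GC content, so the members were also read against it. GC content could be given to 9948 expressed genes. Spearman's rho with the log2 ratio was 0.41 across these genes, which are no independent replicates. Of 20 bins of equal size, the lowest in GC had a median log2 ratio of -0.47 and the highest 1.58. The members' GC content ran from 44.6% in FBXW7 to 62.5% in ZBTB17, against a median of 50.3% over expressed genes. RUVBL1, WDR5 and EP400 had bin medians of 0.18, 0.35 and 0.35, and corrected log2 ratios of 2.72, 2.75 and 1.08. KAT2A and RUVBL2, both in a bin with a median of 0.73, had corrected log2 ratios of 1.31 and 2.53. RUVBL1, RUVBL2, WDR5, KAT2A and EP400 were still the members past 2-fold after the correction.

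**Figure D4:**
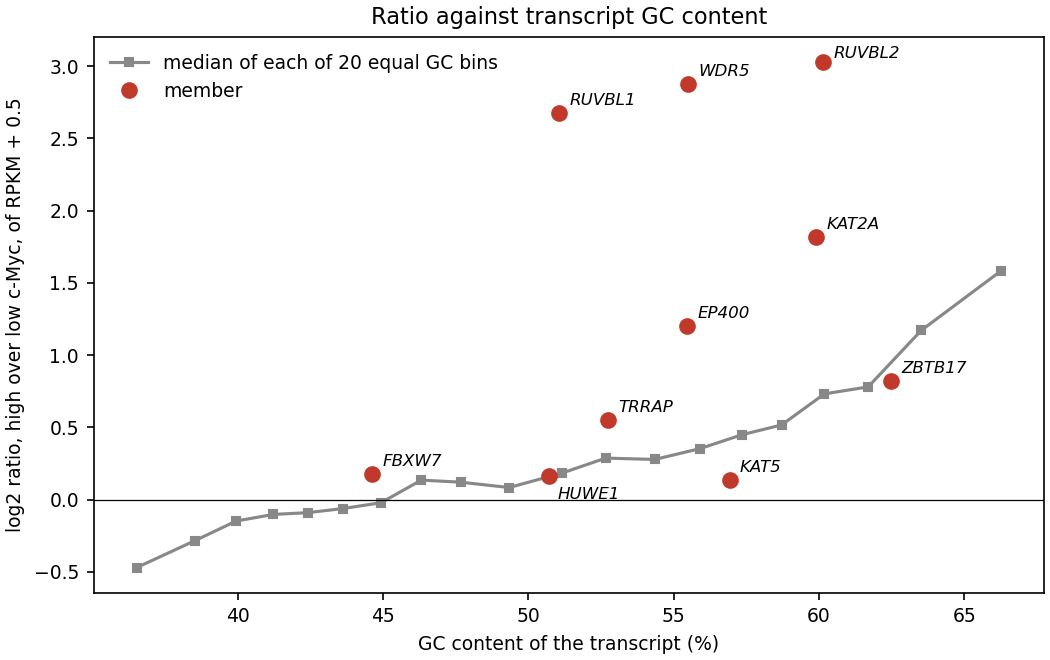
Log2 ratio of RPKM + 0.5, high over low c-Myc, against the GC content of the transcript in %, with the members as red points and the median of each of 20 equal GC bins in grey. RUVBL1, RUVBL2, WDR5, KAT2A and EP400 lie well above the grey line, and KAT5 lies below it.

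The members' complexes and pathways were described with 13 lists of 202 other genes, all found in the tables, of which 192 were expressed. Past 2-fold, 46 (24.0%) were higher with high c-Myc and 8 (4.17%) were lower, around a median log2 ratio of 0.24. The shares among all expressed genes were 24.9% and 9.74%, around a median of 0.22. These counts moved with the scaling, and the GC correction covered 190 of the 192 genes, without USP36 and UBE3A. Over 4 rescalings (centring, equal RPKM sums, quantile normalization and GC correction) 24 to 31 partners (12.5% to 16.3%) were higher and 6 to 22 (3.16% to 11.5%) were lower, beside 17.5% to 22.2% and 8.58% to 17.0% of expressed genes. The range over these rescalings follows the count of each list below. Higher and lower in the lists refer to the RPKM scale. Per cell, no list had a gene lower by 2-fold or more, beside 0.0876% of expressed genes. The 8 genes lower on the RPKM scale were 1.45-fold (KAT2B) to 2.77-fold (FBXO11) higher per cell.

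Of the 13 other TIP60 subunits, 3 were higher and none was lower (median 0.15, 1 to 2 higher and 0 to 2 lower over the rescalings). YEATS4, a reader of acetylated histones, stood at an RPKM of 21.6 with high c-Myc and 3.29 with low c-Myc (2.55), and the actin-related ACTL6A at 14.2 with high c-Myc and 5.70 with low c-Myc (1.25). ING3 and MORF4L1 had the lowest ratios, at -0.96 and -0.98, and were past 2-fold after centring (-1.18 and -1.20). Of the 27 other SAGA and ATAC subunits, 6 were higher and KAT2B was lower (median 0.28, 2 to 5 higher and 2 to 5 lower over the rescalings). The SAGA subunit TAF6L had a log2 ratio of 1.77, or 0.83 after the GC correction, and the histone-fold protein POLE4 one of 1.64, while ATXN7, of the deubiquitinase module, stood at -0.98.

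RUVBL1 and RUVBL2 also serve the INO80 and SRCAP remodelling complexes and the R2TP chaperone. Of the 15 other INO80 and SRCAP subunits, 4 were higher and none was lower (median 0.83, 2 to 3 higher and 0 lower over the rescalings). INO80B stood at an RPKM of 44.9 with high c-Myc and 7.86 with low c-Myc (2.44), INO80E had 1.74, or 0.79 with GC corrected, and ACTR8 and INO80D stood at -0.18 and -0.66. R2TP works with the TTT complex on the kinases of the family to which TRRAP belongs, although TRRAP itself has lost kinase activity. Of these 10 genes 3 were higher and 1 was lower (median 0.46, 2 to 4 higher and 1 lower over the rescalings). TELO2, of the TTT complex, stood at 91.8 with high c-Myc and 9.999 with low c-Myc (3.14, or 1.78 after the GC correction). Among the kinases, the DNA repair kinase PRKDC stood at 45.0 with high c-Myc and 14.8 with low c-Myc (1.57) and the damage kinase ATM at 4.03 with high c-Myc and 12.9 with low c-Myc (-1.57). MTOR, ATR and SMG1 had log2 ratios of 0.54, 0.39 and -0.08, and the R2TP subunit RPAP3 had -0.36.

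Of the 21 partners of WDR5 in histone methyltransferase and NSL complexes, 6 were higher and none was lower (median 0.40, 1 to 4 higher and 0 to 1 lower over the rescalings). SETD1A, a SET1 methyltransferase, stood at an RPKM of 38.3 with high c-Myc and 11.3 with low c-Myc (1.71). HCFC1, a scaffold that also binds MYC, stood at 72.7 with high c-Myc and 25.2 with low c-Myc (1.51, or 0.96 after the GC correction). The demethylase KDM6A and the glycosyltransferase OGT had the lowest ratios, at -0.60 and -0.86. The core subunits that share these methyltransferases with WDR5, RBBP5, ASH2L and DPY30, chosen after their values were seen, stood at -0.08, -0.09 and 0.56, all within 2-fold.

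The other genes around FBXW7 lay on both sides of 0. Of 10 genes of the SCF core and of NEDD8 conjugation, 3 were higher and 1 was lower (median 0.21, 1 to 2 higher and 0 to 2 lower over the rescalings). The ubiquitin-conjugating enzyme CDC34 stood at an RPKM of 58.6 with high c-Myc and 11.5 with low c-Myc (2.30), and UBE2M, which carries NEDD8, had 1.29, or -0.06 with GC corrected. UBE2R2, a paralog of CDC34, stood at -0.64 and UBA3, of the NEDD8-activating enzyme, at -1.32. Of 26 other F-box proteins expressed, 10 were higher and 1 was lower (median 0.33, 7 higher and 0 to 4 lower over the rescalings). SKP2, another receptor for MYC, stood at 20.6 with high c-Myc and 6.36 with low c-Myc (1.62), FBXL6 had a log2 ratio of 1.79, and FBXO7 and FBXO11 had the lowest, at -0.84 and -1.09.

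Of 12 genes, mainly kinases, phosphatases and deubiquitinases, that act on the phosphorylated MYC degron or on MYC ubiquitination, 4 were higher and 1 was lower (median 0.23, 2 to 3 higher and 0 to 1 lower over the rescalings). USP36, a nucleolar deubiquitinase that counters FBXW7, stood at an RPKM of 43.1 with high c-Myc and 7.18 with low c-Myc (2.50). It had no GC-corrected ratio, so the count after the GC correction leaves it out. GSK3B, which writes the degron phosphate, and PPP2R5A, a phosphatase subunit, stood at -0.68 and -1.29. Of 8 further ligases linked to MYC, STUB1 alone was higher (1.72, or 0.37 after the GC correction) and none was lower (median 0.05, 1 higher and 0 to 2 lower over the rescalings), with TRIM32 at 0.90 and RCHY1 at -0.97. Of the 17 HECT ligases other than HUWE1 that were expressed, none was higher and HERC4 was lower at -1.44 (median -0.20, 0 higher and 1 to 4 lower over the rescalings). HERC2 and UBE3C had the highest ratios among them, at 0.65 and 0.62, and TRIP12 stood at -0.93.

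Of 12 expressed substrates of FBXW7 other than MYC, 3 were higher and none was lower (median 0.45, 1 higher and 0 to 2 lower over the rescalings). NOTCH1 stood at an RPKM of 55.1 with high c-Myc and 15.5 with low c-Myc (1.801, or 0.86 after the GC correction), cyclin E1 (CCNE1) had a log2 ratio of 1.08, and MCL1 and NOTCH2 stood at -0.71 and -0.88. Of 8 expressed partners and targets of ZBTB17, 2 were higher and 1 was lower (median 0.45, 1 to 2 higher and 1 lower over the rescalings). HCFC1 and NPM1 were the higher genes, NPM1 at 7.14 with high c-Myc and 1.67 with low c-Myc with many near-identical copies that make its value uncertain, and VAMP4, a trafficking gene bound by ZBTB17, was the lower gene, at 0.829 with high c-Myc and 3.72 with low c-Myc (-1.67). TOPBP1, a repair protein that binds ZBTB17, stood at 0.11. The cell cycle inhibitor CDKN1A, a target of ZBTB17 chosen after its values were seen, stood at 64.5 with high c-Myc and 32.2 with low c-Myc (0.99), just within 2-fold.

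Of 16 other coactivators and partners of MYC, 2 were higher and 1 was lower (median 0.06, 2 higher and 0 to 1 lower over the rescalings). SMARCA4, the ATPase of the BAF complex, stood at an RPKM of 177 with high c-Myc and 41.6 with low c-Myc (2.08), and the arginine methyltransferase PRMT5 at 26.4 with high c-Myc and 6.43 with low c-Myc (1.96). BPTF, the large subunit of the NURF remodeller, was the lower gene at 8.61 with high c-Myc and 19.1 with low c-Myc (-1.11), and SP1 stood at -0.44. Centring, scaling to equal sums and quantile normalization each turned the sign of the medians of the TIP60, SCF, further MYC ligase and coactivator lists. Scaling to equal sums and quantile normalization turned those of the SAGA list and of the degron list, and quantile normalization alone that of the WDR5 list. The median of the HECT ligases was negative and those of the other 5 lists positive under each of these scalings. Among the named genes past 2-fold, the GC correction also brought CDC34 (0.95), FBXL6 (0.43), UBA3 (-0.81), FBXO11 (-0.39), PPP2R5A (-0.59) and BPTF (-0.85) within it.

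**Figure D5:**
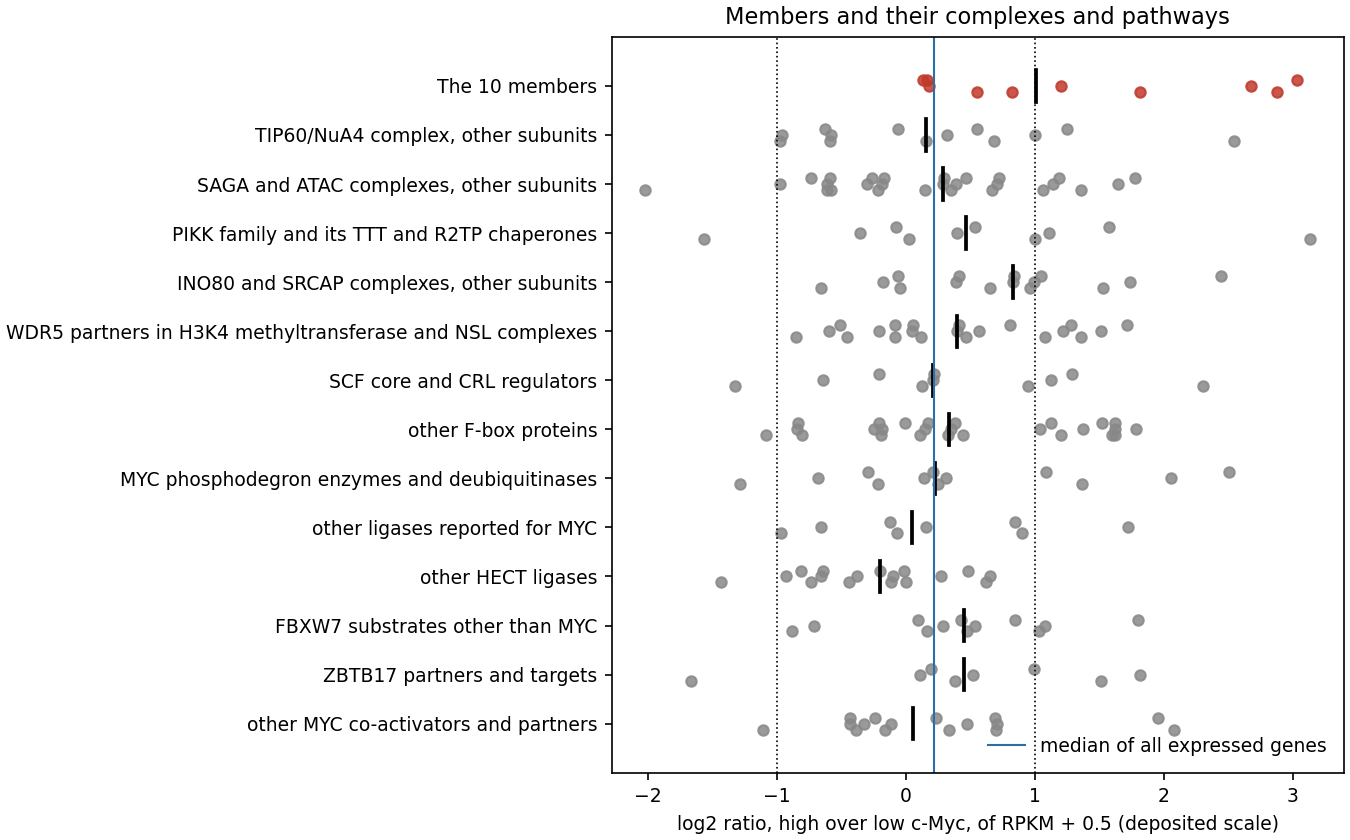
Log2 ratio of RPKM + 0.5, high over low c-Myc, of the 10 members (red) and of the expressed genes of each of the 13 lists (grey), with black bars at the medians, a blue line at the median of all expressed genes and dotted lines at 2-fold. The HECT ligases have no gene past 2-fold on the higher side.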

How the data were processed

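RNA sequencing of 2 libraries of P493-6 cells was analysed, 1 per group. Per the labels' protocols, synthetic RNAs were added to total RNA by cell number, polyadenylated RNA was selected, and strand-keeping dUTP libraries were amplified by PCR. Per the submitters' processing notes, Bowtie and the hg18 build were used. The sources used here do not name the counting tool, its filters or its use of strand. The authors deposited RPKM values for 34194 transcripts and 92 synthetic RNAs per library, and a signal column renormalized to the synthetic RNAs, per the file headers. How that column was made is likewise unstated.

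Each symbol was represented by its transcript with the highest mean RPKM. Ratios were log2(RPKM + 0.5), high over low, which understates differences of weakly expressed genes. A gene past 2-fold was called higher or lower. No test was made, because the values are not counts and there was a single library per group. Per-cell ratios subtract the median of the synthetic RNAs after the pseudocount was added. Depth came from the steps of low RPKM times transcript length, as the depth with the highest share of reads within 0.05 of a whole number. That share was 46.8% of 2301 low transcripts with high c-Myc and 49.2% of 3219 with low c-Myc. By chance it would be 10% at a depth fixed in advance, which is not the chance level of a share picked as the highest. Reads per transcript are approximate, since lengths and GC content came from GENCODE 29 (GRCh38) by RefSeq accession. Exact binomial 95% intervals on them, on the ratio without the pseudocount, cover counting error only. GC correction subtracted the median ratio of each of 20 equal GC bins and added back the overall median. The depth step, intervals and correction were tested on simulated data.

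The members and the lists were chosen with earlier results of these data known. Named genes are all members, MYC, MAX, the 2 highest and 2 lowest of each list at a mean RPKM of at least 1, the paralog KAT2B and the kinase relatives of TRRAP, with cell type markers and genes overlapping a member beside these and other exceptions marked. Of these, 2 list genes are not reported here. Of the listed genes, 9 were found under an older symbol. Alternatives covered the pseudocount, the transcript row, scaling, GC content and the synthetic RNAs. The software was Python 3.11.15 with pandas 2.3.3, numpy 2.4.6, matplotlib 3.10.9 and scipy 1.17.1.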

Additional observations from a re-analysis of the deposited data

How the results depend on the processing

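No paired analysis was possible because each group holds 1 library and the labels give no replicate numbers. Past 2-fold on the deposited RPKM scale there were 5 higher members, and 4 after centring on the median of expressed genes, at equal RPKM sums without the synthetic RNAs and after quantile normalization, EP400 being the gene lost in each. There were 5 without a pseudocount, with a pseudocount of 1, after the GC correction and with summed transcripts. No member was at least 2-fold lower under any of these. The members' median log2 ratio of 1.01 was 0.79 after centring, 0.70 at equal sums, 0.50 after quantile normalization and 0.78 after the GC correction. These scalings put the median of all expressed genes at 0 after centring, -0.07 at equal sums, -0.09 after quantile normalization and 0.23 after the GC correction. Per cell all 10 members stayed at least 2-fold higher under every alternative run, and the median of 3.57 was 3.51 with synthetic RNAs at an RPKM of at least 10 and 3.17 in the authors' renormalized column. Taking the longest transcript or that with the lowest mean RPKM, both chosen after seeing the data, gave FBXW7 a log2 ratio of -0.52 and -0.70. The share of genes at least 2-fold higher was 29.2% at a mean RPKM of at least 5 and 13.8% with no limit, against 24.9% as reported. Depth does not limit the members, whose transcripts rest on about 841 to 39634 reads, but the lack of replicates does.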
